A study of Capsella grandiflora x Capsella rubella and Capsella rubella and Capsella grandiflora with 8 samples.

Results

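The AGL36, AGL37 and AGL45 homologues are 3 of the 26521 genes counted in developing seeds of Capsella rubella (Cr), Capsella grandiflora (Cg) and their reciprocal hybrids. They were chosen by name, as the genes Carubv10001166m.g, Carubv10003161m.g and Carubv10015167m.g, which a gene list of the study gives as AGL36, AGL37 and AGL45. That list pairs Carubv10001166m.g with the Arabidopsis locus AT5G26650 and Carubv10015167m.g with AT3G05860. It also pairs Carubv10003161m.g with AT5G26650, the AGL36 locus, although AGL37 is otherwise a name of PHERES1 (PHE1). The files do not settle whether this gene is nearer to AGL36 or to PHE1, and the name AGL37 is used here as the list gives it.

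RNA was sequenced from whole seeds at 6 days after pollination (DAP), with 2 libraries of 300 to 500 seeds for each of 4 crosses, 8 in all. The crosses, female parent first, were Cr seeds from C. rubella pollinated by C. rubella, Cg seeds from C. grandiflora pollinated by C. grandiflora, Cr × Cg seeds and Cg × Cr seeds. C. rubella is a self-fertilizing species and C. grandiflora an outcrosser, and a single accession of each (Cr48.21 and Cg4a) was used for expression. Library totals lay between 24838286 and 34290034 counts. Whole seeds hold endosperm, embryo and seed coat, so fewer cells of a tissue and less RNA per cell cannot be told apart.

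Type I MADS-box genes encode transcription factors that in Arabidopsis act mainly in the female gametophyte and the endosperm, the tissue that nourishes the embryo. Many of them are active while the endosperm is a syncytium and are silenced around the time it forms cell walls, and their proteins bind DNA as dimers of different subgroups. In Arabidopsis, AGL36 is an imprinted gene expressed from the maternal allele in endosperm, whereas PHE1 is expressed mainly from the paternal allele. AGL45 belongs to the same large type I family, and its role in seeds is less well known. AGL90 is a close paralogue of AGL36 in Arabidopsis and is given here for comparison.

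The 3 genes shared one pattern. Each had its highest level in Cr × Cg seeds, in both libraries, above all 6 libraries of the other crosses. Of all 21214 genes tested, 14.2% had such a pattern, and 16.7% were above all 4 parental libraries in both Cr × Cg libraries. The AGL36 and AGL37 homologues were nearly absent from Cr and Cg × Cr seeds and low in Cg seeds, with 4 and 3 counts of the latter gene. The AGL45 homologue differed from them in being present in seeds of both parental species. All 3 genes passed the filter on low counts. The AGL37 homologue reached 10 counts in 2 libraries, both of Cr × Cg, the AGL36 homologue in these and in Cg replicate 1, and the AGL45 homologue in 6 libraries. The AGL36 and AGL37 homologues thus entered the tests through the cross in which they were high, and neither passed the filter in fits of 2 crosses without Cr × Cg.

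For the AGL36 homologue, the Cr × Cg libraries held 118 and 190 counts, those of Cg 12 and 9, those of Cr 1 and 0, and those of Cg × Cr 0 and 2. Divided by the library total and given per 1e+06 counts (CPM), this was 5.55 ± 2.98 CPM (SD, n = 2) in Cr × Cg and 0.365 ± 0.0488 CPM in Cg. A count of 0 allows up to 3 counts, or 0.121 CPM in Cr replicate 2 and 0.102 CPM in Cg × Cr replicate 1. By counts alone, the levels fell into a high group (Cr × Cg), a low group (Cg) and a pair around the detection limit (Cr and Cg × Cr). Cg differed from neither of that pair by the edgeR test applied to the comparisons below. The last pair could not be ordered at this depth, since 2 counts against 1 gave a ratio of 2.1 with an exact 95% counting interval of 0.109 to 124.

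For the AGL37 homologue, the Cr × Cg libraries held 44 and 47 counts, those of Cg 4 and 3, those of Cr 1 and 0, and those of Cg × Cr 1 each. Its level was 1.59 ± 0.431 CPM (SD, n = 2) in Cr × Cg and 0.122 ± 0.0163 CPM in Cg. Cr × Cg was again highest and Cg next by its mean, but Cg, Cr and Cg × Cr could not be ordered. The ratio by summed counts was 7.28 for Cg against Cr (exact 95% counting interval 0.936 to 328). It was 0.288 for Cg × Cr against Cg (0.0292 to 1.51), and both intervals include 1. The number of AGL36 counts for each AGL37 count was 3 in both Cg libraries and 2.68 and 4.04 in the Cr × Cg libraries, with few counts behind the Cg ratios.

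For the AGL45 homologue, the Cr × Cg libraries held 267 and 432 counts, those of Cg 81 and 41, those of Cr 60 and 8, and those of Cg × Cr 0 and 23. Its level was 12.6 ± 6.79 CPM (SD, n = 2) in Cr × Cg, 2.1 ± 0.843 CPM in Cg, 1.04 ± 1.02 CPM in Cr and 0.447 ± 0.632 CPM in Cg × Cr. The Cr libraries lay far apart, at 1.77 and 0.322 CPM. The Cr libraries overlapped with both Cg and Cg × Cr, and no pair of these 3 crosses differed by the test applied to the comparisons.

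**Figure D1:**
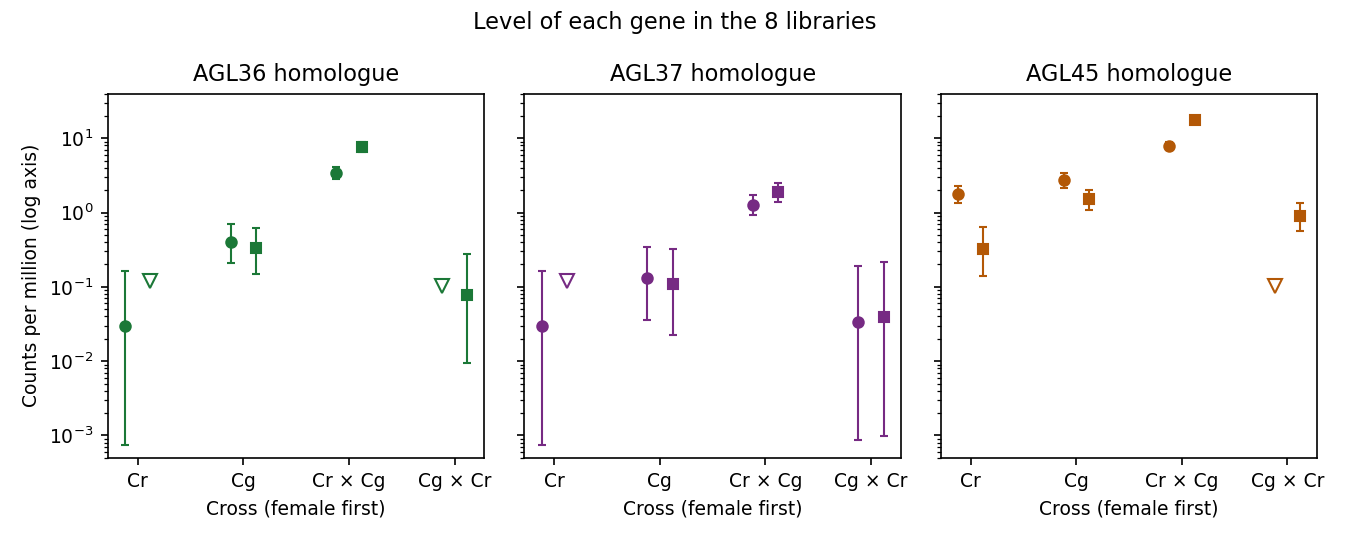
Level of each homologue in CPM (log axis) in the 8 libraries, by cross. Circles are replicate 1 and squares replicate 2, with exact 95% Poisson intervals that cover counting error only; open triangles are libraries with 0 counts, drawn at the level of 3 counts. In each panel both Cr × Cg libraries lie above the other 6, from 1.28 CPM (AGL37 homologue) to 17.4 CPM (AGL45 homologue).

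To ask how seeds carrying a C. grandiflora father and a C. rubella mother differed from those of the mother species, Cr × Cg was compared with Cr. The quasi-likelihood test of edgeR was run on the counts in one fit of all 4 crosses, and a gene was called at a Benjamini-Hochberg adjusted p under 0.05 over all genes tested. Of the 3 genes, 2 were higher in Cr × Cg, where 12.4% of all genes tested were called higher and 10.3% lower. DESeq2 called the same 2, beside 14.6% higher and 12% lower. The AGL36 homologue had a fitted log2 fold change of 8.10 (SE 1.13, adjusted p = 0.0026), and the AGL37 homologue one of 6.30 (SE 1.01, adjusted p = 0.0042). With a single count in Cr, these fitted values depend on the small prior count of the fit. From the summed counts, the AGL36 homologue was 320 times its Cr level (exact 95% counting interval 56.9 to 12700) and the AGL37 homologue 94.4 times (16.5 to 3770).

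Both calls against Cr held in all 15 alternatives that were run, with adjusted p of at most 0.022 and 0.035. Without Cr replicate 1, which held the only count, the fitted values were 10.34 and 8.53. They were 7.41 and 5.60 without Cr replicate 2. The AGL36 value was also 7.41 without Cr × Cg replicate 2. The AGL45 homologue had a log2 fold change of 3.62 (SE 1.29), which did not pass the test (edgeR adjusted p = 0.089). It passed without Cg × Cr replicate 1 (0.022) or 2 (0.023) and in a fit of only the Cr and Cr × Cg libraries (0.033). Without Cr replicate 2 its adjusted p was 0.30.

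Against the father species the differences were smaller. In Cr × Cg the AGL36 homologue was higher than in Cg by 3.96 on the log2 scale (SE 0.82, edgeR adjusted p = 0.017), or 14.6 times by summed counts (exact 95% counting interval 9.4 to 24). The AGL37 homologue was higher by 3.70 (SE 0.80, adjusted p = 0.02), or 13 times (6.04 to 33.2). Of all genes tested, 7.28% were higher in this comparison (9.94% in DESeq2, which called the same 2) and 7.59% lower (9.98% in DESeq2), and 3.72% were higher than in both Cr and Cg, as these 2 were. The AGL45 homologue had a value of 2.63 (SE 1.23, adjusted p = 0.21), with the lowest Cr × Cg library at 7.79 CPM and the highest Cg library at 2.7 CPM.

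The calls against Cg were lost in several of the fits that left out a library. That of the AGL36 homologue did not pass when Cg replicate 1 (adjusted p = 0.097) or 2 (0.092) or Cr × Cg replicate 2 (0.11) was left out, with log2 fold changes between 3.25 and 4.09. That of the AGL37 homologue did not pass when either Cg library (0.12 and 0.11) or either Cr × Cg library (0.053 and 0.11) was left out, with values between 3.38 and 3.96. The direction remained in each of these fits. For the AGL45 homologue, a fit of only the Cg and Cr × Cg libraries passed the threshold (0.03), and no fit that left out a single library did.

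**Figure D2:**
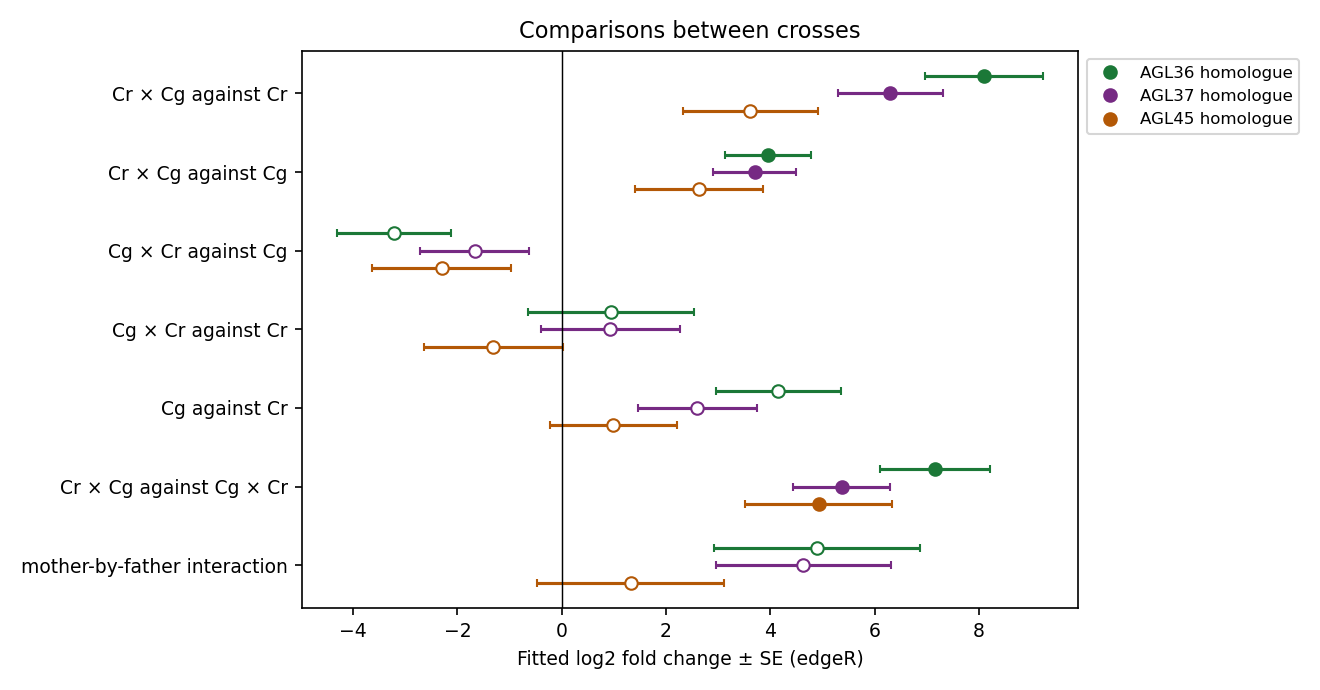
Fitted log2 fold changes (horizontal axis) of the 3 homologues in the comparisons between crosses (vertical axis), with bars of 1 SE either way. Filled points passed an edgeR adjusted p under 0.05 and open points did not. The AGL36 homologue lies at 8.10 against Cr, 3.96 against Cg and 7.16 between the hybrids.

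The hybrids, which differ in the direction of the cross, were compared with each other. All 3 genes were higher in Cr × Cg than in Cg × Cr, where 11.6% of all genes tested were higher and 13% lower (13.9% and 14.6% in DESeq2, which also called all 3). The log2 difference was 7.16 for the AGL36 homologue (SE 1.05, edgeR adjusted p = 0.0033), 5.37 for the AGL37 homologue (SE 0.93, adjusted p = 0.0058) and 4.93 for the AGL45 homologue (SE 1.41, adjusted p = 0.043). By summed counts, these were 152 times (exact 95% counting interval 41.8 to 1260), 45 times (12.1 to 377) and 30 times (19.9 to 47.7) the Cg × Cr level. The AGL36 and AGL37 calls held in all alternatives, with adjusted p of at most 0.02 and 0.048.

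The fitted AGL36 difference was 6.19 without Cg × Cr replicate 1, 6.46 without Cr × Cg replicate 2 and 10.40 without Cg × Cr replicate 2, which held its only counts in that cross. The AGL45 call lay close to the threshold. It did not pass when either Cg library (0.074 and 0.076), either Cr × Cg library (0.078 and 0.15) or Cg × Cr replicate 1 (0.066) was left out, with no filter on low counts (0.069) and in a fit of only the hybrids (0.078). Its value was 3.93 without Cg × Cr replicate 1 and 11.58 without replicate 2, where no count was left in Cg × Cr.

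**Figure D3:**
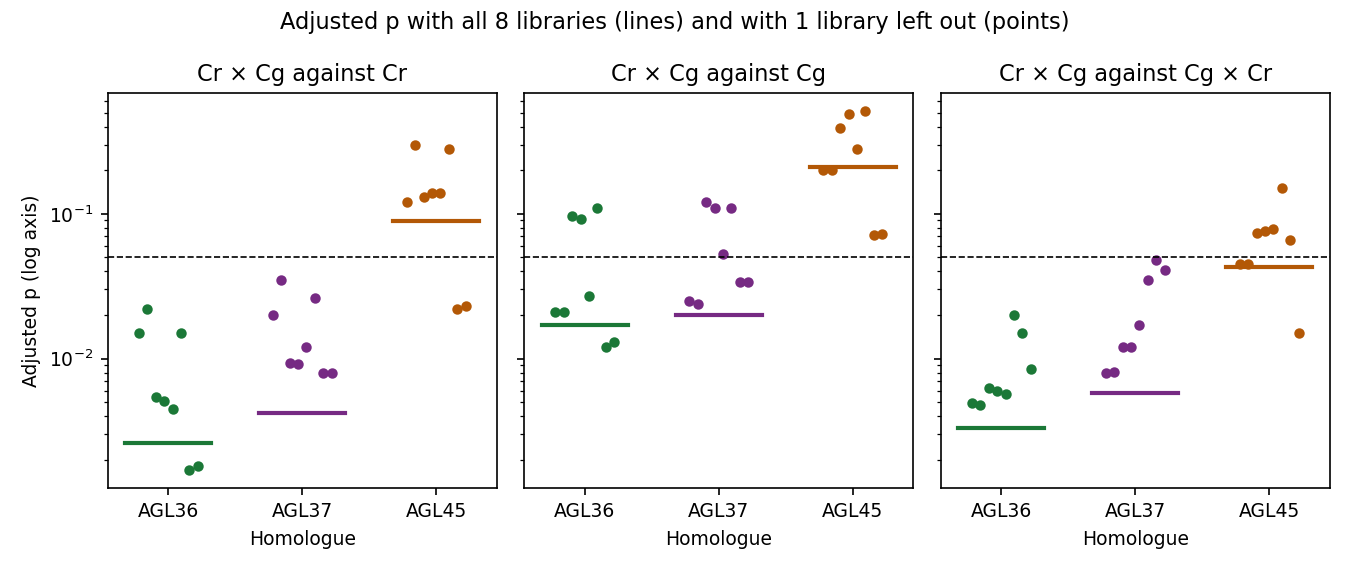
Adjusted p (log axis) of each homologue in edgeR's test for Cr × Cg against Cr, against Cg and against Cg × Cr. Thick lines are the fit of all 8 libraries, points the 8 fits with 1 library left out, and the dashed line 0.05. Against Cr, every point of the AGL36 and AGL37 homologues lies under the line (at most 0.022 and 0.035), whereas against Cg they lie on either side of it (up to 0.11 and 0.12).

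In Cg × Cr seeds no change of the 3 genes passed the test. Against Cg, the mother species, edgeR called 0 of 3 (1 at an unadjusted p under 0.05, 0 in DESeq2), where 1.32% of all genes tested were called lower and 1.24% higher (4.29% and 4.82% in DESeq2). The log2 fold changes were -3.21 (SE 1.09, adjusted p = 0.15), -1.67 (SE 1.04, 0.40) and -2.30 (SE 1.33, 0.38) for the AGL36, AGL37 and AGL45 homologues. Without Cg × Cr replicate 1 the AGL36 and AGL45 values were -2.23 and -1.29, and without replicate 2, which held their only counts in that cross, -6.43 and -8.94. The AGL36 counts of 0 and 2 against 12 and 9 gave a ratio of 10.4 for Cg over Cg × Cr (exact 95% counting interval 2.54 to 91.6, which covers counting error only). For the AGL37 homologue the same ratio was 3.47, with an interval (0.661 to 34.2) that includes 1. Both Cg × Cr libraries had under 3 counts of either gene, so the depth limits what can be said of a decrease. The AGL45 homologue did not have both Cg × Cr libraries below all 4 parental libraries, as 7.77% of all genes tested did. The AGL36 and AGL37 homologues could not have, since Cr replicate 2 held 0 counts of each.

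Against Cr, the father species, edgeR called 0 of 3 genes in Cg × Cr (0 at an unadjusted p under 0.05, 0 in DESeq2), with 4.56% of all genes called higher and 1.91% lower (7.33% and 4.25% in DESeq2). The fitted values were 0.94 (SE 1.59), 0.93 (SE 1.33) and -1.31 (SE 1.33), each within 1 SE of 0. The AGL45 counts of 0 and 23 in Cg × Cr enclosed the CPM of Cr replicate 2, and the groups overlapped. The sign of the AGL45 value turned to 0.41 without Cr replicate 1, and that of the AGL36 value to -2.29 without Cg × Cr replicate 2.

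The parental species were compared directly. None of the 3 genes was called in edgeR's test of Cg against Cr (1 at an unadjusted p under 0.05, and 1 called by DESeq2), where 7.66% of all genes tested were higher in Cg and 5.38% lower (10.6% and 8.14% in DESeq2). The AGL36 homologue had a log2 difference of 4.15 (SE 1.20, adjusted p = 0.057), and its Cg level by summed counts was 21.9 times that of Cr (exact 95% counting interval 3.51 to 904). It passed the threshold in DESeq2 (adjusted p = 0.036) and without Cg × Cr replicate 1 (0.044) or 2 (0.045). Without either Cr library (0.13 and 0.20) or either Cg library (0.14 and 0.13) it did not, with differences between 3.45 and 6.40. The AGL37 homologue had 7 counts in Cg against 1 in Cr (log2 difference 2.60, SE 1.14, adjusted p = 0.17), and the AGL45 homologue a difference of 0.99 (SE 1.22, adjusted p = 0.64).

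The crosses form a design of both mothers by both fathers, so it was also tested whether C. grandiflora pollen, against C. rubella pollen, moved the level differently on either mother. For the AGL36 homologue, the effect of C. grandiflora pollen on the log2 scale was 8.10 on a C. rubella mother and 3.21 on a C. grandiflora mother. For the AGL37 homologue it was 6.30 and 1.67, and for the AGL45 homologue 3.62 and 2.30. On a C. grandiflora mother none of these effects passed the test (edgeR adjusted p = 0.15, 0.40 and 0.38), and on a C. rubella mother that of the AGL45 homologue did not (0.089). The differences between mothers, 4.90 (SE 1.97), 4.63 (SE 1.68) and 1.32 (SE 1.79), did not pass the test (edgeR adjusted p = 0.19, 0.15 and 0.74). Thus 0 of 3 genes were called in edgeR and 0 in DESeq2. Of all genes tested, edgeR called 2.77% with a positive and 3.08% with a negative difference (6.57% and 5.69% in DESeq2). At an unadjusted p under 0.05 in edgeR's test, 2 of the 3 genes passed, a threshold to which these shares do not apply. Of the 21214 genes tested, the AGL37 homologue ranked 3355 by this p (0.024) and the AGL36 homologue 4054 (0.037). With 1 library left out, the AGL36 difference lay between 1.68 (without Cg × Cr replicate 2) and 7.10 (without Cr replicate 1) and the AGL37 difference between 3.91 (without Cr replicate 2) and 6.83 (without Cr replicate 1). The sign of the AGL45 difference turned to -5.33 without Cg × Cr replicate 2, which left that cross without a count.

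Endosperm carries 2 maternal genomes for each paternal one. The mean CPM of the parental species was therefore weighted as 2 parts mother and 1 part father. It was set beside the hybrids as a description, with no test. The weights are those of endosperm, whereas the libraries were of whole seeds, and they take no account of imprinting. The weighted mean is thus not a prediction of the hybrid level. In Cr × Cg the levels were 42.1 times this weighted mean for the AGL36 homologue, 31.5 times for the AGL37 homologue and 9.01 times for the AGL45 homologue. In Cg × Cr the same ratios were 0.156, 0.423 and 0.255, with few counts behind each. In mean CPM the hybrids thus lay on opposite sides of the weighted parental mean. For the AGL37 homologue the side of Cg × Cr was undecided at this depth. Its exact 95% counting intervals reached 0.189 and 0.217 CPM, above the weighted mean of 0.0861 CPM. For the AGL36 homologue the interval of Cg × Cr replicate 2 reached 0.281 CPM, against a weighted mean of 0.248 CPM.

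The Cr × Cg libraries differed from each other in the same direction for all 3 genes. In CPM, replicate 2 exceeded replicate 1 by a factor of 2.22 for the AGL36 homologue, 1.47 for the AGL37 homologue and 2.23 for the AGL45 homologue. For the AGL37 homologue the exact 95% counting intervals overlapped (0.932 to 1.72 and 1.39 to 2.52 CPM). A factor of at least 1.47 was found in 12.2% of the 20812 tested genes with reads in both libraries. The number of AGL45 counts for each AGL36 count was 2.26 and 2.27 in these libraries, against 6.75 and 4.56 in Cg. The same libraries differed strongly in embryo storage transcripts. The summed level of 5 cruciferin and 2S albumin genes was 643 CPM in Cr × Cg replicate 1 and 0.926 CPM in replicate 2.

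Storage transcripts varied between replicates in every cross, so the tissue markers are given beside the 3 genes. The summed storage level was 9780 and 104 CPM in Cr, 27.5 and 5.66 CPM in Cg, and 2800 and 656 CPM in Cg × Cr. The embryo list, 9 matched genes of 11 loci, ranged from 945 to 11600 CPM in Cr, 244 to 512 CPM in Cg, 57.6 to 1010 CPM in Cr × Cg and 1970 to 4400 CPM in Cg × Cr. Within the embryo list, the genes did not move together. The LEC1 homologue stood at 10.4 and 24.4 CPM in Cr × Cg replicates 1 and 2, whereas every other gene of the list was lower in replicate 2. In Cr, the LEC1 homologue (146 and 152 CPM) and the FUS3 homologue (82.4 and 117 CPM) were not lower in replicate 2, as the other genes of the list were. In Cr and Cg, the library with more AGL45 counts was also the one with more storage transcripts. In Cr × Cg and Cg × Cr it was the one with fewer. The part of these differences in the results was not tested.

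The endosperm markers, 7 genes matched to 6 loci, were not all found in every cross. The AGL62 homologue had no count in Cg, and an AGL80 homologue, Carubv10028059m.g, had none in Cg or Cg × Cr. The summed level of the list was 57.8 and 78.9 CPM in Cr, 57.3 and 48.1 CPM in Cg, 39 and 71.7 CPM in Cr × Cg, and 18.4 and 48.3 CPM in Cg × Cr. Within the list, the genes did not move together. In Cr × Cg, the homologue of FWA, an imprinted homeodomain gene, stood at 22.2 and 51.4 CPM and that of MEDEA, a Polycomb gene, at 7.99 and 7.97 CPM, above all other libraries. The homologue of ZHOUPI, a regulator of endosperm breakdown, stood at 6.21 and 6.48 CPM, below all other libraries (15.5 to 63.6 CPM). Most of the summed level came from the ZHOUPI homologue in Cr, Cg and Cg × Cr and from the FWA homologue in Cr × Cg.

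Cg × Cr replicate 1, which had no AGL36 and no AGL45 count, also had no count of the MEDEA and AGL62 homologues and the lowest endosperm sum. AGL62, which keeps the endosperm from forming walls too early in Arabidopsis, was likewise at 0 in Cr replicate 2 and in both Cg libraries, and had 44 and 52 counts in Cr × Cg. Only 2 of the 5 seed coat loci were matched. Their summed level was 459 and 523 CPM in Cr, 237 and 229 CPM in Cg, 245 and 350 CPM in Cr × Cg, and 287 and 133 CPM in Cg × Cr. These 2 genes did not move together. The TT12 homologue, a transporter of the pigmented seed coat, was higher in Cr × Cg (146 and 191 CPM) than in Cr (26.4 and 23.5 CPM). The log2 fold change was 2.82 (edgeR adjusted p = 0.0011). It was also higher than in Cr in Cg (2.05, adjusted p = 0.0038) and in Cg × Cr (1.61, 0.016). Cr × Cg was not called against Cg (0.78, 0.095). The MUM4 homologue, a mucilage gene, stood at 98.7 and 158 CPM in Cr × Cg against 433 and 500 CPM in Cr (-1.79, edgeR adjusted p = 0.089). How far the share of endosperm in a library enters the levels of the 3 genes was not tested.

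The AGL90 homologue, Carubv10001114m.g, was likewise highest in Cr × Cg and next in Cg. Its Cr × Cg libraries held 108 and 153 counts, those of Cg 19 and 11, those of Cr 0 and 1, and those of Cg × Cr 2 and 8. In Cr × Cg it was higher than in Cr by 7.81 on the log2 scale (SE 1.15, edgeR adjusted p = 0.0031) and higher than in Cg by 3.20 (SE 0.81, adjusted p = 0.034). Between the parents, the AGL36 homologue lay near the threshold (4.15 higher in Cg, SE 1.20, edgeR adjusted p = 0.057). The AGL90 homologue passed it (4.61 higher in Cg, SE 1.19, adjusted p = 0.04). That call was lost without either Cr library (0.17 and 0.088), without either Cg library (0.12 and 0.086) and without Cr × Cg replicate 2 (0.058), and the call against Cg without either Cg library (0.13 and 0.15) or either Cr × Cg library (0.053 and 0.17). Reads that mapped to several places were discarded before counting, so close copies such as these may be undercounted. How many reads this cost was not tested.

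The likeness of profiles over the 8 libraries was measured by Pearson's r of log2(CPM + 0.5), as a description, since the libraries share 4 crosses. The AGL36 and AGL37 homologues had an r of 0.994 with each other, rank 6 and rank 7 among all genes tested. The AGL45 homologue had an r of 0.925 with the former and 0.900 with the latter. Many genes were more alike, since it held rank 671 for the AGL36 homologue and rank 832 for the AGL37 homologue. The 5 genes most like the AGL36 homologue were Carubv10003528m.g (paired with AT5G17470 in the study, r = 0.999), Carubv10009069m.g (AT1G12970, 0.996), Carubv10025613m.g (AT2G30900, 0.996), Carubv10011008m.g (AT1G29080, 0.995) and Carubv10027014m.g (0.994). For Carubv10025613m.g the Cr × Cg libraries held 83 and 123 counts, those of Cg 9 and 12, those of Cr none and those of Cg × Cr 1 each. Carubv10009069m.g had a far higher level in every cross, with 2074 and 2499 counts in the Cr × Cg libraries and 562 to 866 in the others, since r compares the shape of a profile and not its size.

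The 5 genes most like the AGL37 homologue were Carubv10015233m.g (r = 0.998), Carubv10015179m.g (AT5G50115, 0.997), Carubv10017740m.g (AT3G45200, 0.996), Carubv10027014m.g (0.995), which was also on the AGL36 list, and Carubv10024690m.g (0.995). For Carubv10015179m.g the Cr × Cg libraries held 140 and 184 counts, those of Cg 7 each, those of Cr 0 and 1, and those of Cg × Cr 1 and 4. Those most like the AGL45 homologue were Carubv10001829m.g (0.983), Carubv10011022m.g (0.981), Carubv10021612m.g (AT1G75110, 0.980), Carubv10002098m.g (AT5G64080, 0.978) and Carubv10020684m.g (0.972). For Carubv10021612m.g, a flatter profile, the Cr × Cg libraries held 231 and 197 counts, those of Cg 105 and 62, those of Cr 98 and 47, and those of Cg × Cr 42 and 68.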

How the data were processed

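The values are read counts per gene, which the authors deposited without normalization. By the study's methods and the labels, reads were trimmed with Trimmomatic, aligned to the C. rubella genome with Stampy, filtered for multiple mapping with Samtools and counted with HTSeq at its default options. Counts of C. grandiflora alleles may be lowered by alignment to the other species' genome. Of the 26521 genes, 21214 passed edgeR's filterByExpr (count minimum of 10) and were tested after TMM normalization in one robust quasi-likelihood fit of all 4 crosses (R 4.3.3, edgeR 4.0.16, limma 3.58.1), with 4 residual degrees of freedom. The SE is the absolute log2 fold change over the square root of F and restates the test. The study's own RankProd calls were not repeated. The fit was tested on simulated data. Counting intervals are exact and cover counting error only.

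A list of further genes that was tested is not reported here. The genes and lists were chosen with earlier results of these data known. Named genes were the 3 homologues, the AGL90 homologue, and the 5 genes most like each in profile, together with fixed tissue markers matched through the study's Arabidopsis pairings. Replicates were biological by the study's methods, and those of each cross differed by more than counting noise (chi-square divided by its degrees of freedom, 84.03 to 92.62). Alternatives were DESeq2 1.42.0, its size factors in edgeR, no filter, 1 CPM in 2 libraries, a non-robust fit, a replicate block, only the crosses compared, each library left out, and pseudocounts of 0.1 and 1. Sequences, coordinates, neighbouring genes and a promoter motif were not analysed here, as no reference sequence was used.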

Additional observations from a re-analysis of the deposited data

Results flagged for a closer look

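The AGL90 homologue was picked out because the effect of C. grandiflora against C. rubella pollen differed between the mothers, by 6.31 on the log2 scale (SE 1.49, edgeR adjusted p = 0.048), with an effect of 7.81 on a C. rubella mother and 1.50 on a C. grandiflora mother. The call was lost with the replicate block (adjusted p = 0.067) and when any library other than Cg × Cr replicate 1 was left out, with adjusted p between 0.063 and 0.21. It remained in DESeq2 (0.0063).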

How the results depend on the processing

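Of the 3 homologues' fold changes, 3 turned in direction when 1 library was left out. For Cg × Cr against Cr, they were those of the AGL45 homologue (0.41 without Cr replicate 1, range -7.96 to 0.41) and the AGL36 homologue (-2.29 without Cg × Cr replicate 2, range -2.29 to 3.16). The other was the mother-by-father difference of the AGL45 homologue (-5.33 without Cg × Cr replicate 2, range -5.33 to 3.03). The last 2 came from the same fit, in which Cg × Cr held no count of either gene. With 1 library left out, its cross has a single library, assumed to vary like the others. Then the number of the 3 genes called lay between 2 and 3 for Cr × Cg against Cr, 0 and 2 against Cg, 2 and 3 between the hybrids, and 0 and 1 between the parents (1 in DESeq2, 1 in a block with the Cg numbers exchanged). The number of all genes called lay between 2055 and 4555 for Cr × Cg against Cr (4822 with all libraries), 1100 and 3026 against Cg (3155), 162 and 461 for Cg × Cr against Cg (541, or 1943 in DESeq2), 241 and 1156 for Cg × Cr against Cr (1373, DESeq2 2525), 966 and 2684 between the parents (2766, DESeq2 4171), 2276 and 4825 between the hybrids (5213), and 322 and 940 for the mother-by-father difference (1240, DESeq2 2554). The cause of these shifts was not tested.

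The replicate block changed no call of the 3 homologues and gave 4506 genes for Cr × Cg against Cr. The labels do not say what the numbers stand for. Deviations of same-numbered libraries correlated at 0.333, 0.221 and 0.237 among Cr, Cr × Cg and Cg × Cr, but at -0.124, -0.176 and 0.0596 between Cg and these, so not every pair was over 0.1. With the numbers of the Cg libraries exchanged, chosen after seeing the data, 3474 genes were called between the parents and 3738 for Cr × Cg against Cg. Depth limits the AGL36 and AGL37 homologues in Cr and Cg × Cr, where no library had more than 2 counts. Of the 5 most similar genes, 1, 3 and 2 remained for the AGL36, AGL37 and AGL45 homologues with a pseudocount of 0.1, and 4 of each with 1.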
